A study of Mus musculus with 11 samples.

Results

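The nuclei described here are those that the authors' metadata place in cluster 9 and name neurons. There were 1912 of them among 1968 nuclei of cluster 9, the other 56 being named oligodendrocytes. They made up 2.51% of the 76211 nuclei named neurons and 1.73% of all 110304 nuclei. The deposited class and cluster number chose them. Cluster 9 was picked from the neuronal clusters with its loss of Malat1 already known, so the size of that loss is a description of a chosen cluster.

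The study asked how well an antisense oligonucleotide (ASO) against Malat1 reaches brain cells when it is carried by a molecule that binds the transferrin receptor (TfR). Nuclear RNA from snap-frozen brain was profiled by droplet single-nucleus sequencing in 11 libraries. All groups were labelled as homozygous for a human TfR knock-in and received 4 weekly intravenous doses, with tissue taken 72 h after the last. OTV:Malat1 (n = 3) was the TfR-binding carrier with the Malat1 ASO, at 60 mg/kg of conjugate. The nonTV:Malat1 group (n = 3, titled RSV-ASO) received the ASO on a carrier that, by its name, lacks the TfR-binding part, also at 60 mg/kg of conjugate. Malat1 ASO (n = 2, replicates 1 and 5) was the free oligonucleotide at 2.5 mg/kg. The control, ATV:BACE1 (n = 3), was labelled 57 mg/kg and is a TfR-binding molecule without an ASO. By its name it is also directed at BACE1, and the part of this in contrasts against it was not tested. In each group the mouse of replicate 1 was female, aged 2.33 months, while those of replicates 4 and 5 were males, aged 2.57 and 2.33 months. These numbers coincide with the deposited batches, so sex, age and batch cannot be told apart. The labels give the region as posterior brain and the metadata as cortex, and the metadata name the strain C57BL/6J without the knock-in. Each library carries 1 sex and 1 age, but no label says that it was a separate mouse, so p-values measure the spread between libraries.

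Malat1 is a long non-coding RNA that stays in the nucleus, where it gathers at the speckles that hold splicing factors, and it is among the most abundant RNAs of a neuron's nucleus. A gapmer-type ASO pairs with its target and recruits RNase H1, which works in the nucleus, so a nuclear RNA is a direct readout of delivery. The TfR carries iron-loaded transferrin into cells and is present on brain capillaries and on neurons. Neurons divide broadly into inhibitory cells, which make GABA with Gad1 and Gad2, and excitatory cells, which load glutamate into vesicles with Slc17a7 or Slc17a6. Oligodendrocytes wrap axons in myelin and are marked by myelin genes such as Mbp, Mog and Mag. The Malat1 gene (ENSMUSG00000092341.3) lies on the minus strand of chromosome 19, from 5795690 to 5802672 in GRCm38, and GENCODE M21 lists 4 transcripts for it.

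The cluster 9 nuclei carried neuronal and oligodendrocyte RNA side by side. Of the 1912 nuclei, 99.8% held at least 1 unique molecular identifier (UMI, 1 counted RNA molecule) of 7 oligodendrocyte markers. Those markers made up a median of 32.8 per 10000 UMIs of a nucleus. The same median was 1.38 in the neurons of cluster 1, 1.98 in all neurons outside cluster 9 and 160 in the oligodendrocytes of cluster 3. The middle 90% of cluster 9 nuclei ran from 12.5 to 76.0 per 10000, so the load was spread over nearly all of the nuclei.

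Oligodendrocyte genes led the list of genes that set cluster 9 apart from other neurons. Levels are given as CPM, the UMIs of a gene per 1000000 UMIs of the population. Ranked by the ratio of CPM to that of the other neurons, among genes of at least 50 CPM, the first 20 held Aspa, Mog, Fa2h, Ninj2, Anln, St18 and Prr5l. Aspa is the enzyme that breaks down N-acetylaspartate, Fa2h hydroxylates the fatty acids of myelin lipids, and Mog is a protein of the myelin surface. Their levels, summed over all libraries, were 265 CPM for Aspa against 29.6 in other neurons, 239 for Mog against 29.6, and 155 for Fa2h against 20.1. St18, a transcription factor, stood at 747 against 86.5 CPM, and Prr5l at 610 against 64.1. All 20 leading genes, and all of the first 100, were higher still in the oligodendrocytes of cluster 3. The first 20 stood at between 20.3% and 29.0% of their oligodendrocyte level. Slc13a1, Sec14l5, Plekhh1, Fbxw15 and a group of poorly described loci (A330049N07Rik, 4930420G21Rik, C030029H02Rik, A230001M10Rik, 1700047M11Rik, Gm36855, Gm19500, Gm10863 and Gm48370) completed the 20. No gene singled out these nuclei from both of their likenesses. Of 3969 genes at 50 CPM or more, 0 exceeded 1.2 times the highest of clusters 0, 1, 2 and 3, and the closest, Maml2, reached 1.18 times. These genes took part in the clustering, so the ranking describes the cluster and is no test.

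The neuronal genes were present at close to the level of cluster 1. Syt1, the calcium sensor of synaptic release, stood at 1893 CPM against 2330 in cluster 1 neurons and 270 in cluster 3 oligodendrocytes. Rbfox3, which encodes the neuronal nuclear antigen NeuN, stood at 268, 328 and 42.8 CPM in the same order. Both lay well above the oligodendrocyte level and a little below that of cluster 1. Gad1 and Gad2, which make GABA, were at 103 and 123 CPM against 117 and 155 in cluster 1. Slc17a6, the vesicular glutamate transporter of thalamus and brainstem, was at 47.1 against 64.3 CPM. Slc17a7, the transporter of cortical and hippocampal excitatory neurons, was at 23.4 against 26.8 CPM, at 93.8 in all other neurons and at 55.9 in cluster 3 oligodendrocytes, above the level of cluster 9. Adarb2, which marks interneurons of caudal origin, was at 1456 CPM against 1676 in cluster 1 and 666 in other neurons. It was picked from a list of 6 interneuron markers. Of these, Pvalb, Sst, Vip and Lamp5, at 15.7, 53.6, 17.7 and 12.6 CPM, lay below cluster 3 oligodendrocytes, at 32.2, 148, 31.1 and 23.0. Lhx6, at 13.2 against 1.73 CPM, and Adarb2, against 70.9, lay above them.

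**Figure D1:**
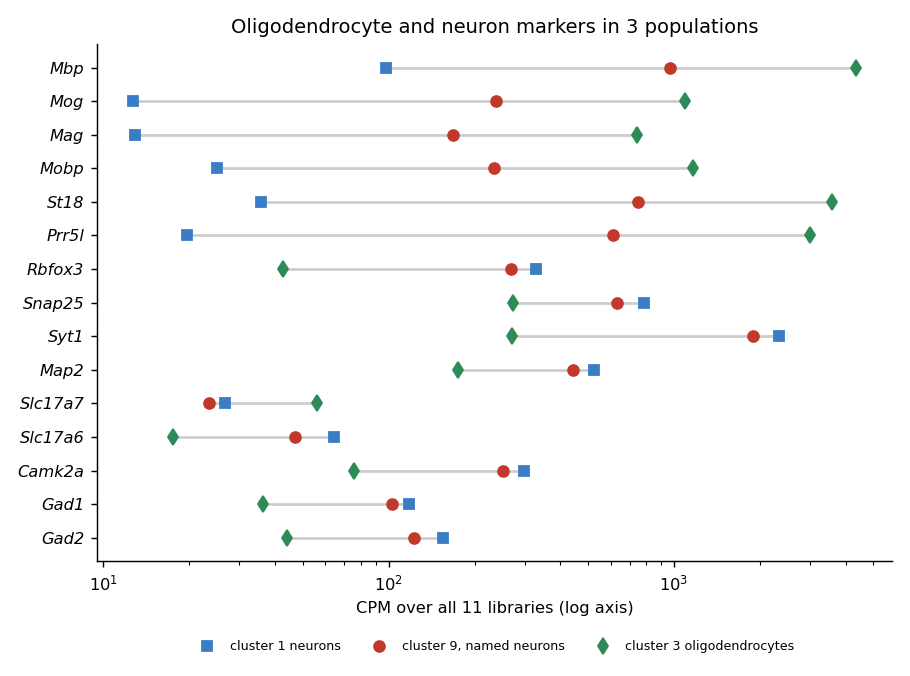
CPM (log axis) of 6 oligodendrocyte markers, 4 general neuron markers and 5 transmitter-type markers, summed over the 11 libraries, in cluster 9 nuclei named neurons (circles), cluster 1 neurons (squares) and cluster 3 oligodendrocytes (diamonds). Cluster 9 lies between the other populations for every oligodendrocyte marker shown, as in Mog at 239 CPM against 12.7 and 1091, and sits close to cluster 1 for the neuron genes.

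By counts of transmitter genes the nuclei were marked in more than 1 way. A nucleus was called inhibitory-marked when it held more UMIs of the GABAergic markers than of the glutamatergic ones, and excitatory-marked in the reverse case. On this count 910 nuclei (47.6%) were inhibitory-marked, 302 (15.8%) excitatory-marked, 59 tied and 641 (33.5%) held neither. The neurons of cluster 1 had nearly the same makeup, with 44.8%, 16.9% and 35.3% for inhibitory, excitatory and neither. The same count in cells that should lack these genes gives a background. In cluster 3 oligodendrocytes, at a median of 910 UMIs against 4122.5 in cluster 9, 9.56% were inhibitory-marked and 6.38% excitatory-marked. Since depth differed, whether the excitatory-marked share of cluster 9 exceeds this background was not tested. With 2 or more UMIs apart, 493 nuclei of cluster 9 were inhibitory-marked and 97 excitatory-marked. The label of neuron was thus borne out by neuronal genes, but the leading genes were those of oligodendrocytes, and no single neuron kind is given here.

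The authors' doublet caller marked 783 of the 1912 nuclei (41.0%), against 13.1% of other neurons, 45.3% of cluster 5 neurons and 0.0231% of cluster 3 oligodendrocytes. The doublet share was not even over the groups. ATV:BACE1 had 46.7%, 49.7% and 52.8% in replicates 1, 4 and 5, and nonTV:Malat1 had 27.5%, 35.8% and 27.8%. OTV:Malat1 had 44.3%, 32.4% and 44.3%, and Malat1 ASO had 47.0% and 35.7% in replicates 1 and 5. All nonTV:Malat1 and OTV:Malat1 libraries lay below the control libraries (exact two-sided permutation p = 0.1 for each, the smallest that 3 against 3 allows). Leaving out the called doublets left 1129 nuclei, and values from these are given where stated. No cell barcode was shared between libraries among the 1912 nuclei, and 57 of their barcodes also occurred in some nucleus of another library.

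The share of neurons that fell in cluster 9 overlapped between groups with all nuclei kept, while without the called doublets 2 groups lay apart from the control. With all nuclei it was 2.35%, 2.28% and 2.65% in ATV:BACE1 and 2.50%, 2.28% and 2.50% in OTV:Malat1, means of 2.43% ± 0.197 and 2.43% ± 0.129 (SD, n = 3 each). It was 2.04%, 2.89% and 2.70% in nonTV:Malat1 (2.54% ± 0.444, SD, n = 3) and 2.30% and 2.97% in Malat1 ASO (2.64% ± 0.472, SD, n = 2). The exact permutation p was 0.9 for OTV:Malat1 and 0.8 for nonTV:Malat1 against the control. Without the called doublets, the share of cluster 9 among neurons was 1.46%, 1.35% and 1.57% in ATV:BACE1 libraries. It was then 1.61%, 1.70% and 1.67% under OTV:Malat1, 1.69%, 2.12% and 2.18% under nonTV:Malat1 and 1.40% and 2.18% under Malat1 ASO. All OTV:Malat1 and nonTV:Malat1 libraries then lay above the control, by 0.197 and 0.535 percentage points in the means (exact permutation p = 0.1 for each). The oligodendrocyte-marker load of the summed cluster overlapped with all nuclei kept. Per 10000 UMIs it was 36.5, 36.1 and 34.8 in ATV:BACE1, and OTV:Malat1 had 38.1, 31.8 and 37.8 (exact permutation p = 1.0). The nonTV:Malat1 libraries had 36.8, 40.6 and 33.0 and those of Malat1 ASO 34.6 and 36.0.

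Summed markers of further cell types differed in how they stood to cluster 1. Of 6 astrocyte markers the summed level ran from 219 to 249 CPM in ATV:BACE1 cluster 9 nuclei, and from 191 to 260 under OTV:Malat1, against 225 in cluster 1 neurons. In Malat1 ASO it was 198 to 202, below every control library. Of 4 microglial markers it ran from 101 to 159 in ATV:BACE1, from 98.8 to 188 under OTV:Malat1 and from 92.0 to 127 under Malat1 ASO, against 128. None of these markers was at 0 in every library. The 3 markers of oligodendrocyte precursors summed to 14.8 to 48.1 CPM in ATV:BACE1, 31.6 to 48.2 under OTV:Malat1, 38.6 to 62.3 under nonTV:Malat1 and 41.5 to 84.7 under Malat1 ASO, against 28.4 in cluster 1. The 3 leptomeningeal markers summed to 2.75 to 5.68 CPM in the control and 5.52 to 9.17 under OTV:Malat1, against 7.87. They summed to 3.22 to 3.90 under nonTV:Malat1 and 2.59 to 8.97 under Malat1 ASO. The 3 markers of choroid plexus and ependyma, which include Ttr, summed to between 226 and 556 CPM in the control and between 251 and 277 under OTV:Malat1, against 449 in cluster 1. Their sums were 352 to 599 under nonTV:Malat1 and 294 to 363 under Malat1 ASO.

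Malat1 fell to 47.0% of the control level in OTV:Malat1, and it passed the test in no other group. In ATV:BACE1 replicates 1, 4 and 5 it took 6.28%, 6.34% and 7.23% of the UMIs of cluster 9 nuclei (mean 6.61% ± 0.533, SD, n = 3). The OTV:Malat1 shares were 3.11%, 2.67% and 3.54% (mean 3.11% ± 0.436, SD, n = 3). Every OTV:Malat1 library lay below every other library of the series. With batch as a block, edgeR's quasi-likelihood test on the summed counts gave a log2 change of -1.14 (SE 0.0862, 95% interval -1.31 to -0.96, adjusted p = 1.76e-12 over 10721 genes). Without the block the change was -1.14 and the adjusted p 1.70e-05. Inside the 3 batches the log2 ratios of the Malat1 share were -1.01, -1.25 and -1.03 for replicates 1, 4 and 5. Malat1 was 1 of 8 genes called in this contrast, or 0.0746% of the genes tested.

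The conjugate without the TfR-binding part and the free oligonucleotide gave no called change in summed Malat1. The nonTV:Malat1 shares were 5.62%, 6.25% and 6.52%, a mean of 6.13% ± 0.464 (SD, n = 3), and they overlapped the control shares. Within replicates 1, 4 and 5 they lay below the control, by log2 ratios of -0.16, -0.021 and -0.15. The log2 difference was -0.12 (SE 0.0851, 95% interval -0.29 to 0.049), and edgeR's adjusted p was 1.00. In this contrast edgeR called 0 of 10721 genes (0.0% of those tested), while 476 genes had an unadjusted p under 0.05, and DESeq2 called 0. The Malat1 ASO shares of 6.26% and 6.90% averaged 6.58% ± 0.451 (SD, n = 2) and overlapped the control shares. The log2 difference was -0.017 (SE 0.0984, 95% interval -0.22 to 0.18, adjusted p = 1.00 in edgeR). Set against the nonTV:Malat1 libraries, those of OTV:Malat1 had a log2 change of -1.01 (SE 0.0861, adjusted p = 7.43e-11), and set against Malat1 ASO one of -1.12 (SE 0.0967, adjusted p = 1.30e-10, both edgeR). The label doses of 60 mg/kg of conjugate and 2.5 mg/kg of free ASO are, per the series' design, equal in ASO.

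**Figure D2:**
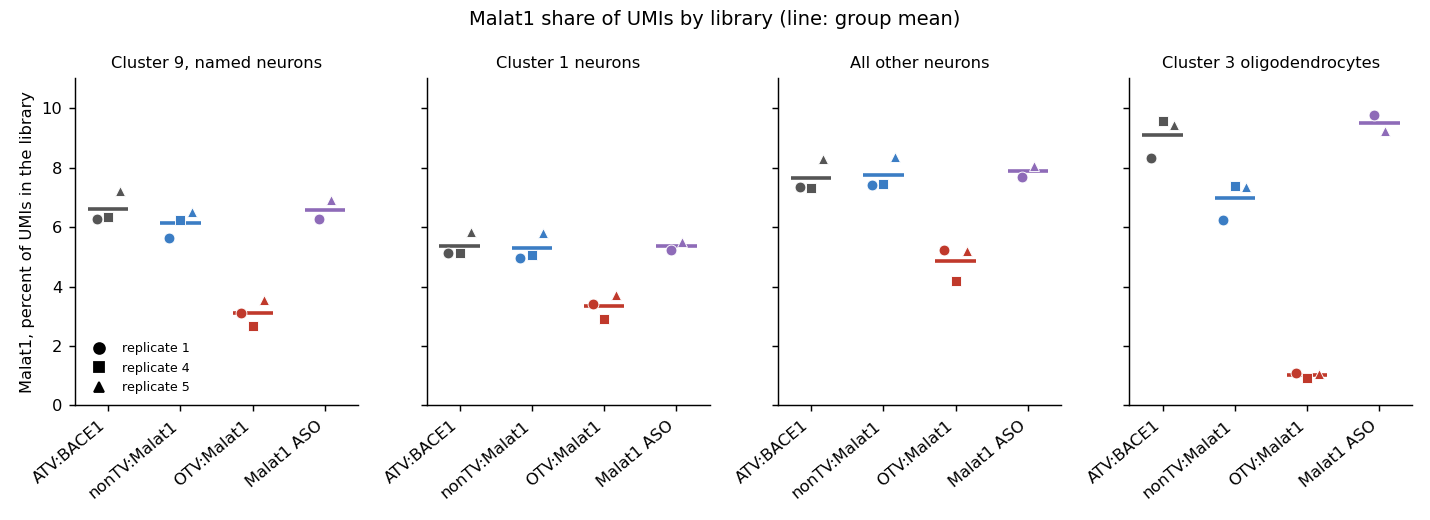
Malat1 as a percent of UMIs in each of 11 libraries for cluster 9 nuclei named neurons, cluster 1 neurons, all other neurons and cluster 3 oligodendrocytes, with symbols for replicates and a line for each group mean. In cluster 9 the 3 OTV:Malat1 libraries lie between 2.67% and 3.54%, below the lowest of the other libraries at 5.62%.

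The fall was seen in single nuclei and not only in the sums. Each nucleus of at least 1000 UMIs was thinned to 1000 UMIs, which left out 1, 1, 5 and 0 nuclei of ATV:BACE1, nonTV:Malat1, OTV:Malat1 and Malat1 ASO. The median thinned Malat1 count was 62 in ATV:BACE1, 57 in nonTV:Malat1, 30 in OTV:Malat1 and 62 in Malat1 ASO. A nucleus was called low when its thinned count was at or under 36.4, the mean over control libraries of their 5th percentile. This limit holds the low share of the control libraries themselves near 5%, and the exact p-values below do not allow for that. Low nuclei made up 5.00%, 6.96% and 2.59% of ATV:BACE1 libraries and 70.1%, 78.4% and 58.5% of OTV:Malat1 libraries. The group means were 4.85% ± 2.19 and 69.0% ± 9.96 (SD, n = 3 each), and 5.44% and 73.0% without thinning. The groups did not overlap (exact permutation p = 0.1). In nonTV:Malat1 the low share was 15.8%, 10.5% and 9.68%, and each of these libraries exceeded each control library (exact permutation p = 0.1). The difference in means was 7.15 percentage points, 5.04 without thinning, and 2.81 without ATV:BACE1 replicate 5, when the low limit was set anew from the other controls and the groups overlapped (exact permutation p = 0.6). Without the called doublets the difference from the control was 60.8 points in OTV:Malat1 and 5.37 points in nonTV:Malat1 (exact permutation p = 0.1 for each). In Malat1 ASO it was 4.55% and 4.07%, inside the control range.

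**Figure D3:**
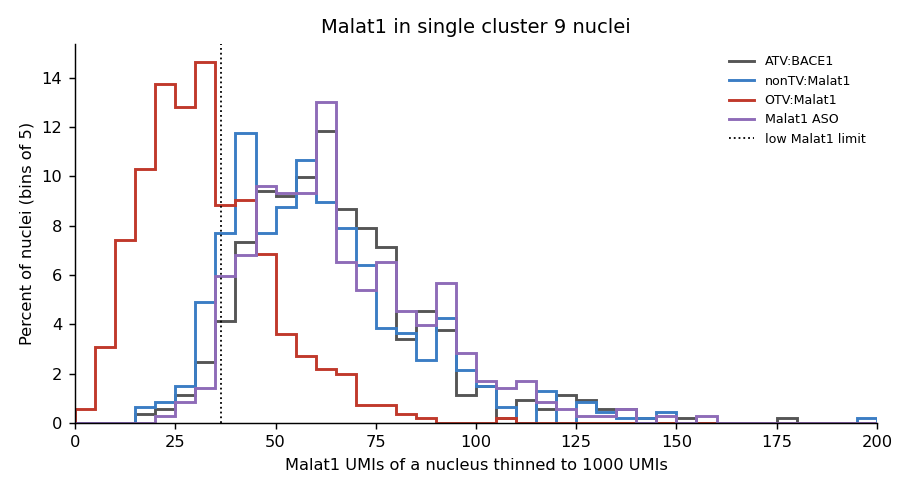
Percent of cluster 9 nuclei in bins of 5 Malat1 UMIs after thinning each nucleus to 1000 UMIs, by group, with the limit for a low nucleus dotted. The OTV:Malat1 curve is moved as a whole toward lower counts, with a median of 30 against 62 in ATV:BACE1, and still overlaps the other curves.

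Malat1 fell in the inhibitory-marked and in the excitatory-marked nuclei. In the inhibitory-marked nuclei its share was 6.64%, 6.71% and 7.89% in ATV:BACE1 and 3.19%, 2.63% and 3.57% in OTV:Malat1. The change was -1.24 (SE 0.0861, edgeR adjusted p = 1.87e-11). In the excitatory-marked nuclei the shares were 6.07%, 6.55% and 6.21% against 2.61%, 2.49% and 3.58%. The fit used the 9 libraries with at least 20 such nuclei, which dropped ATV:BACE1 replicate 5 and nonTV:Malat1 replicate 1, and gave a change of -1.23 (SE 0.115, edgeR adjusted p = 5.56e-15). With those libraries kept it was -1.16 (edgeR adjusted p = 4.53e-08). Without the called doublets the change in inhibitory-marked nuclei was -1.31 (edgeR adjusted p = 1.89e-07), and the excitatory-marked nuclei, 7 to 22 in a library, were too few to fit. With all nuclei, neither set had overlapping groups, and the difference between the sets was not tested. The excitatory-marked sums rest on few nuclei, from 15 to 39 in a library.

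Among the neurons of clusters 0, 1, 2, 5 and 9, fitted in the same way, cluster 9 had the largest log2 difference. Cluster 9 was picked with this loss known, so its rank describes the choice and is no test. For OTV:Malat1 less ATV:BACE1 the others had -0.91 (cluster 5, SE 0.0657), -0.81 (cluster 0, SE 0.0808), -0.72 (cluster 1, SE 0.0954) and -0.39 (cluster 2, SE 0.0862). All but that of cluster 2 passed the test, where edgeR's adjusted p was 0.238. The cluster 3 oligodendrocytes changed by -3.26 (SE 0.128, edgeR adjusted p = 3.83e-22). Their Malat1 share went from 9.11% ± 0.668 in ATV:BACE1 to 1.03% ± 0.0805 in OTV:Malat1 (SD, n = 3 each), 11.3% of the control mean. In these oligodendrocytes the nonTV:Malat1 shares of 6.25%, 7.38% and 7.33% lay below the control shares of 8.34%, 9.56% and 9.42% without overlap. The log2 difference of -0.41 (SE 0.117) was not called (edgeR adjusted p = 1.00).

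Against cluster 1, whose neuronal genes are the most alike, the order of the Malat1 level turned over. In control libraries Malat1 was higher in cluster 9 than in cluster 1, by 0.32, 0.30 and 0.33 on the log2 CPM scale in ATV:BACE1 replicates 1, 4 and 5. In OTV:Malat1 it was lower in cluster 9, with differences of -0.13, -0.10 and -0.08. The nonTV:Malat1 differences of 0.20, 0.33 and 0.18 and the Malat1 ASO differences of 0.30 and 0.36 had the sign of the control. Every OTV:Malat1 value lay below 0 and every other value above it. Against all other neurons the differences were -0.32, -0.31 and -0.30 in ATV:BACE1 and -0.86, -0.73 and -0.67 in OTV:Malat1. The OTV:Malat1 difference in cluster 9 beyond that in all other neurons was -0.44 (SE 0.124), and beyond that in cluster 1 it was -0.42 (SE 0.126). Since cluster 9 was picked for the size of this loss, these values are a description. Neither p nor interval is given for them. The same control libraries served for that loss, so the other groups too are described without p or interval. The nonTV:Malat1 libraries stood at -0.53, -0.34 and -0.47 against all other neurons, below all control libraries. Their difference beyond that in other neurons was -0.13. Against cluster 1 the nonTV:Malat1 and control libraries overlapped. In Malat1 ASO the difference beyond that in all other neurons was -0.022, and its libraries, at -0.39 and -0.32, overlapped the control. No source used here says whether Malat1 entered the authors' clustering.

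The Malat1 level of cluster 9 was close to that of a sum of cluster 1 neurons and cluster 3 oligodendrocytes. In each library, the summed profile of cluster 9 over 3968 genes, without Malat1, was written as a non-negative weighted sum of the profiles of clusters 0, 1, 2 and 3 of the same library. Cluster 1 took from 75.8% to 85.2% of the weight and the oligodendrocytes from 14.8% to 19.0%, while clusters 0 and 2 took at most 2.44% and 4.22%. By group the oligodendrocyte weight was 18.7% ± 0.554 in ATV:BACE1, 18.0% ± 0.581 in nonTV:Malat1, 16.4% ± 1.40 in OTV:Malat1 (SD, n = 3 each) and 17.4% ± 0.321 in Malat1 ASO (SD, n = 2). The OTV:Malat1 weights of 17.5%, 14.8% and 16.7% all lay below the control weights of 18.1%, 19.0% and 19.0%. The Malat1 share of that sum averaged 6.06%, 5.60%, 3.01% and 6.16% in these groups, against observed means of 6.61%, 6.13%, 3.11% and 6.58%. Observed Malat1 was 101% to 113% of the sum over the 11 libraries. The log2 ratio of the OTV:Malat1 mean to the ATV:BACE1 mean was -1.01 for the sum and -1.09 as observed. Without the called doublets it was -1.01 for the sum and -1.11 as observed. This is a description of the summed libraries and does not say whether single droplets held 1 nucleus or more.

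**Figure D4:**
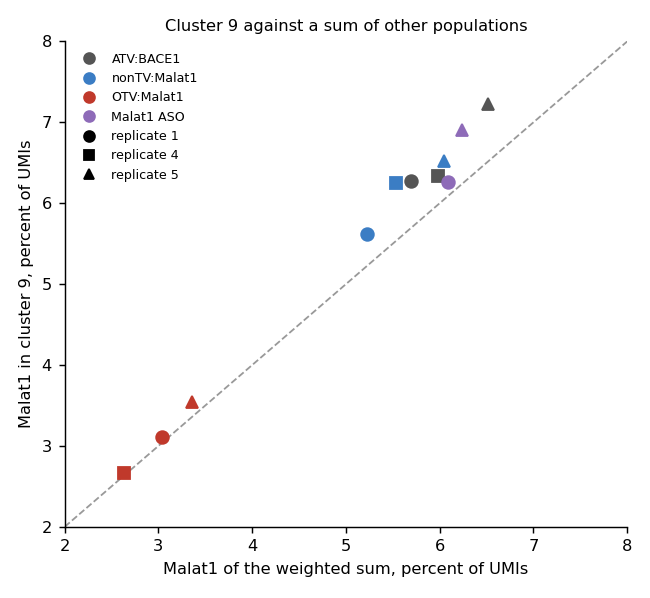
Malat1 as a percent of UMIs observed in cluster 9 nuclei (vertical) against that of the weighted sum of clusters 0, 1, 2 and 3 fitted without Malat1 (horizontal), 1 point for each of 11 libraries, with the line of equality dashed. Every library lies on or slightly above the line, and the OTV:Malat1 libraries lie at the lower end on both axes.

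Within cluster 9 the fall was called at each level of oligodendrocyte-marker load. Nuclei were split at 25.5 and 41.7 marker UMIs per 10000 into low, middle and high bins of 638, 637 and 637 nuclei, a split chosen after seeing the data. In the low bin Malat1 took 6.33%, 6.31% and 6.79% of UMIs in ATV:BACE1 and 3.67%, 2.47% and 3.49% in OTV:Malat1, and the change was -1.07 (SE 0.103, edgeR adjusted p = 5.91e-09). In the middle bin it was -1.21 (SE 0.0963) and in the high bin -1.17 (SE 0.107, edgeR adjusted p = 1.71e-10). In each bin the OTV:Malat1 libraries lay below the control libraries. The log2 ratio of the Malat1 share in the high to that in the low bin was -0.33, 0.15 and 0.064 in OTV:Malat1 replicates 1, 4 and 5. In ATV:BACE1 it was -0.019, 0.072 and 0.11, and the groups overlapped (exact permutation p = 0.8). The low bin still carried a median of 19.2 marker UMIs per 10000, above the 1.38 of cluster 1. Called doublets made up 35.9%, 37.4% and 49.6% of the low, middle and high bins. Called doublets and singlets of cluster 9 had like Malat1 levels, with a mean log2 ratio of -0.081 ± 0.0513 in ATV:BACE1 and -0.077 ± 0.169 in OTV:Malat1 (SD, n = 3 each). Without the called doublets the fall in OTV:Malat1 was -1.16 (SE 0.116, edgeR adjusted p = 4.12e-08).

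**Figure D5:**
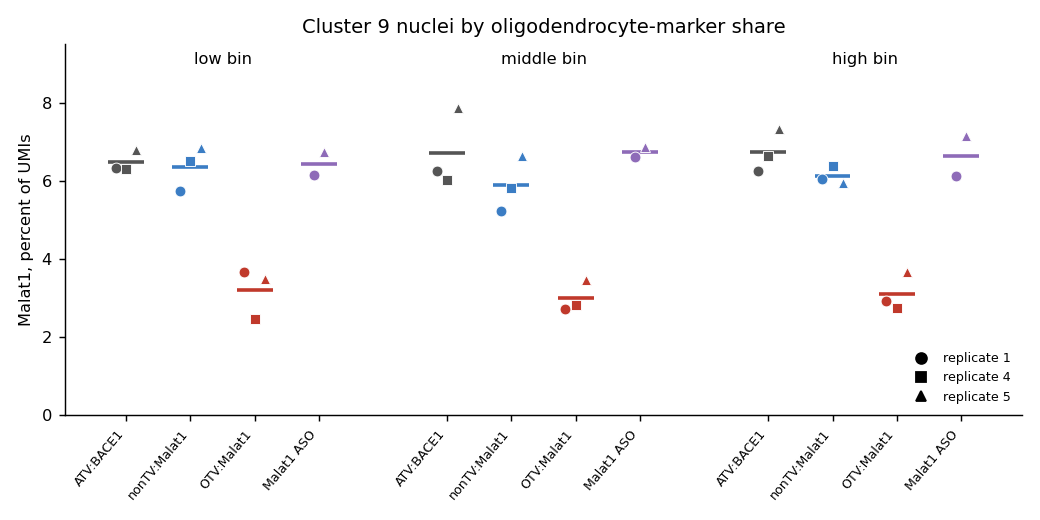
Malat1 as a percent of UMIs by library in cluster 9 nuclei in the low, middle and high bin of oligodendrocyte-marker share, with symbols for replicates and a line for each group mean. The OTV:Malat1 means are 3.21%, 3.01% and 3.11% in the low, middle and high bin, against 6.48%, 6.71% and 6.74% in ATV:BACE1.

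Apart from Malat1, 7 genes were called between OTV:Malat1 and ATV:BACE1, of which 5 rose and 2 fell. None of the 7 was called without the batch block or without the called doublets, and only Ntng1 was called by DESeq2. Each was also lost on leaving out at least 3 single libraries. Ntng1, netrin-G1, an axon-guidance protein strong in thalamic neurons, stood at 727, 826 and 605 CPM in ATV:BACE1 and at 1119, 1534 and 758 in OTV:Malat1, a change of 0.58 (SE 0.106, edgeR adjusted p = 0.00821). The groups overlapped, since OTV:Malat1 replicate 5 lay inside the control range. Leaving out ATV:BACE1 replicate 4, or replicate 1 or 4 of OTV:Malat1, ended the call of Ntng1. In Malat1 ASO it stood at 931 and 898 CPM, which was 0.56 above the same control (edgeR adjusted p = 0.140) and differed from OTV:Malat1 by 0.026 (95% interval -0.22 to 0.27). In cluster 1 neurons of the same libraries it ran from 1029 to 1140 CPM in ATV:BACE1 and from 1027 to 1241 in OTV:Malat1, a log2 difference of -0.0016.

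Rorb, an orphan nuclear receptor of cortical layer 4 and thalamic neurons, rose by 0.72 (SE 0.140, edgeR adjusted p = 0.0187), from 122, 177 and 90.8 to 163, 344 and 172 CPM. Tox, a chromatin-binding factor, rose by 0.65 (edgeR adjusted p = 0.0239), and Myrip, a linker of vesicles to myosin, by 0.76 (edgeR adjusted p = 0.0346). Rorb stood 0.52 above the control in nonTV:Malat1 and 0.31 above it in Malat1 ASO, and OTV:Malat1 differed from nonTV:Malat1 by 0.20 (95% interval -0.07 to 0.47). Myrip stood 0.46 and 0.42 above the control in those groups, and neither gene was called there. Tox stood 0.64 above the control in Malat1 ASO too (edgeR adjusted p = 0.234), and OTV:Malat1 differed from Malat1 ASO by 0.012 (95% interval -0.29 to 0.31). Rorb and Tox groups overlapped, and Myrip groups, at 59.2 to 78.4 and 112 to 123 CPM, did not. Nwd2 fell by 0.97 on the log2 scale (edgeR adjusted p = 0.00821), from 275, 194 and 92.2 to 119, 91.2 and 80.7 CPM, with overlap. In cluster 1 the log2 differences were 0.040, -0.040, 0.022 and 0.21 for Rorb, Tox, Myrip and Nwd2, and none was called. Leaving out ATV:BACE1 replicate 4 ended the calls of Ntng1, Nwd2, Rorb, Tox, Myrip and Avp.

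Avp and Ttr encode secreted products of other cell types, the hypothalamic hormone vasopressin and the transthyretin of the choroid plexus. Ttr was 548, 222 and 440 CPM in the control libraries against 245, 250 and 275 under OTV:Malat1, and it fell by 0.66 on the log2 scale (edgeR adjusted p = 0.0329), with overlapping groups. Against nonTV:Malat1, at 596, 348 and 487 CPM, its change was -0.90 (edgeR adjusted p = 0.000235), and there the groups did not overlap. This call was lost without the block, without the called doublets, by DESeq2 and without OTV:Malat1 replicate 1. The same gene stood at 653, 298 and 500 CPM in cluster 1 neurons of ATV:BACE1 and at 314, 321 and 364 in those of OTV:Malat1, and at 783, 324 and 495 against 369, 407 and 344 over all nuclei. Avp was 12.5, 5.42 and 15.1 CPM in the control libraries and 34.6, 9.67 and 56.1 under OTV:Malat1. The Malat1 ASO libraries of replicates 1 and 5 had 1.30 and 5.98 CPM, in sums of 771440 and 1003894 UMIs. These levels thus rest on very few Avp UMIs. Avp rose by 1.53 (SE 0.319, edgeR adjusted p = 0.0329) against ATV:BACE1 and differed by 3.39 (edgeR adjusted p = 7.03e-06) from Malat1 ASO. In cluster 1 neurons the log2 differences of Avp were 0.027, -0.26 and 0.13 against ATV:BACE1, nonTV:Malat1 and Malat1 ASO. Over all nuclei they were 0.22, 0.037 and 0.63 in that order, and none of these was called. The control and OTV:Malat1 groups of Avp overlapped, through OTV:Malat1 replicate 4. The Ttr call against ATV:BACE1 was lost without replicate 1 or 5 of either group or without nonTV:Malat1 replicate 4, and with library totals in place of TMM, and that of Avp without any control library or without replicate 1 or 5 of OTV:Malat1. The Avp difference from Malat1 ASO kept its call without any 1 of the 11 libraries and was lost without the block. The part of free RNA in these values was not tested.

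In the other contrasts few genes were called. Against nonTV:Malat1, OTV:Malat1 had 3 called genes of 10721 (0.028%), namely Malat1, Ttr and Avp (1.73, edgeR adjusted p = 0.0236). That Avp call was lost without the block, by DESeq2 and without replicate 1 or 5 of either group. Against Malat1 ASO it had 2 (0.0187%), Malat1 and Avp. Malat1 ASO against ATV:BACE1 had 2 (0.0187%), both higher. Gm47283, which GENCODE M21 places on chromosome Y, stood at 32.9, 8.13 and 93.5 CPM in ATV:BACE1 and at 248 and 110 in Malat1 ASO, a change of 1.94 (edgeR adjusted p = 0.00407). It was read in libraries of both sexes, and in cluster 1 neurons it stood at 43.9, 8.04 and 80.4 in the control and at 224 and 105 in Malat1 ASO. Ptpn3, a tyrosine phosphatase of the membrane skeleton, rose by 0.92 (edgeR adjusted p = 0.0220), from 85.2, 93.5 and 60.5 to 143 and 128 CPM. Neither was called without the block or by DESeq2, Ptpn3 was not called without the called doublets, and both lost their call without replicate 1 or 4 of ATV:BACE1 or replicate 1 of Malat1 ASO, Ptpn3 also without replicate 5 of either group.

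In the lists of nuclear, uptake, synaptic, activity and stress genes 0 genes passed the test in OTV:Malat1 against ATV:BACE1, which sets no list apart, since 0.0746% of all genes tested were called. Of 16 genes of nuclear speckles and splicing, 16 were tested and 0 passed in any of the 5 contrasts. Their median log2 difference between OTV:Malat1 and ATV:BACE1 was 0.0050, beside 0.0017 over all genes, within a range of -0.28 to 0.17. Srrm2, a scaffold of the speckle, ran from 341 to 415 CPM in the control and from 344 to 418 under OTV:Malat1. Son, its partner, ran from 256 to 365 and from 312 to 418. Both pairs of ranges overlap.

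Of 10 other nuclear long non-coding RNAs tested 0 passed, with a median of 0.016 and a range of -0.16 to 0.40. Meg3, an imprinted RNA, was 8640, 8556 and 8944 CPM in ATV:BACE1 and 9322, 8835 and 9132 in OTV:Malat1, with overlap and a log2 difference of 0.017. Neat1, the neighbour of Malat1 that builds paraspeckles, was 415, 324 and 453 CPM in ATV:BACE1 and 325, 305 and 478 in OTV:Malat1, a log2 difference of -0.16, with overlap. Of 9 genes near Malat1 in the files 5 passed the filter on low counts, and 0 of the 5 passed the test.

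Of 11 genes of the transferrin receptor and iron, 9 were tested and 0 passed, with a median of -0.13 between OTV:Malat1 and ATV:BACE1. Tfrc, which encodes the mouse TfR, was 53.4, 25.7 and 50.9 CPM in ATV:BACE1 and 33.6, 38.7 and 37.0 in OTV:Malat1, with the OTV:Malat1 values inside the control range. Of 13 genes of RNase H and oligonucleotide handling, 12 were tested and 0 passed, with a median of 0.032. Sfpq, a nuclear protein that binds RNA and phosphorothioate strands, ran from 138 to 154 CPM in ATV:BACE1 and from 146 to 189 in OTV:Malat1, with overlap.

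The 11 genes of synaptic release had a median log2 difference of 0.014 and the 16 receptors of GABA and glutamate one of -0.028, with 0 passing in each. Nrxn3, the largest of the first list at a mean of 4510 CPM, had a log2 difference of -0.16, and Grm5, a glutamate receptor, one of -0.0071. Of the activity-induced genes 7 of 12 were tested, and of the stress and interferon genes 5 of 12, with 0 passing in either. The activity-induced genes ran from -0.65 to 1.85 with a median of -0.10, and the stress and interferon genes from -0.22 to 1.09 with a median of 0.20. Nr4a3, an activity-induced nuclear receptor picked here after its values were seen, stood at 4.54, 2.71 and 5.50 CPM in ATV:BACE1 and at 24.4, 15.2 and 7.85 under OTV:Malat1. Its groups did not overlap, and the log2 difference of 1.85 (SE 0.498) was not called (edgeR adjusted p = 0.288). In nonTV:Malat1 the Nr4a3 difference was 1.48. Homer1 had a log2 difference of -0.073 and Hspa5, a chaperone of the endoplasmic reticulum, one of 0.20.

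Of the marker lists, that of thalamic neurons held a called member, Ntng1, as 1 of 6 in OTV:Malat1 against ATV:BACE1, beside 0.0746% of all genes. The median of this list was 0.52, and 5 of the 6 had an unadjusted p under 0.05, beside 5.54% of all genes tested. Against the same control, 3 of the 6 had such a p in nonTV:Malat1 (median 0.29) and 3 of the 6 in Malat1 ASO (median 0.33), beside 4.44% and 5.73% of all genes, and 0 were called in either. The summed level of the list ran from 1978 to 2456 CPM in ATV:BACE1, from 2369 to 3927 in OTV:Malat1, from 2344 to 2911 in nonTV:Malat1 and from 2314 to 2589 in Malat1 ASO, and was 2886 in cluster 1 neurons. The 6 cortical interneuron markers summed to 1562 to 2068 CPM in ATV:BACE1 and 1423 to 1772 in OTV:Malat1. Their sums were 1395 to 1556 in nonTV:Malat1 and 1391 to 1432 in Malat1 ASO. In nonTV:Malat1 3 of these 6 had an unadjusted p under 0.05 (median -0.36), with 0 called. The 5 cortical and hippocampal excitatory markers summed to 252 to 297 CPM in ATV:BACE1 and 345 to 353 in Malat1 ASO. These sums were 275 to 326 in OTV:Malat1 and 252 to 278 in nonTV:Malat1. Excitatory-marked nuclei numbered 31 of 180, 24 of 159 and 15 of 193 in ATV:BACE1 and 36 of 167, 31 of 111 and 32 of 280 in OTV:Malat1. The share was higher than in the control in each replicate number. Over all 11 libraries it was 15.8% (302 of 1912). The counts of nonTV:Malat1 and Malat1 ASO are not given here, so these values do not show a difference particular to OTV:Malat1. Slc17a6 stood at 43.2, 43.4 and 23.4 CPM in the control libraries and at 66.2, 70.4 and 38.1 under OTV:Malat1, a log2 difference of 0.61 (SE 0.213) that was not called (edgeR adjusted p = 0.660). It stood at 45.1, 42.1 and 45.4 CPM in nonTV:Malat1 and at 48.0 and 48.8 in Malat1 ASO. Of the 3 glutamatergic markers 2 were tested, with a median of 0.36 and 0 called. The part of the mix of neuron kinds in the changes of Ntng1, Rorb and Tox was not tested. The 7 oligodendrocyte markers had a median of -0.044 and the 3 GABAergic markers one of -0.20, with 0 called in either list.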

How the data were processed

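The authors deposited a matrix of whole-number UMI counts without normalization (25938 genes, 110304 nuclei) with a metadata table. Per the submitters' processing notes Cell Ranger 5.0.0, Seurat 4 and the mm10 build were used. The deposited metadata also hold each nucleus' percent of mitochondrial UMIs, a prediction score as a fraction, and the class, cluster, doublet call and batch. For the filters on nuclei, the doublet caller and the clustering steps, no source used here gives details. Column sums were equal to the deposited totals in 110304 nuclei. Library totals ran from 33235994 to 43972886 UMIs, of which 605897 to 976132 per library were cluster 9 UMIs of tested genes.

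Members and gene lists were chosen with earlier results of these data known. Counts were summed per library and tested with edgeR 4.0.16 (filterByExpr, TMM, glmQLFit and glmQLFTest) in R 4.3.3, with all 4 groups and batch in the model and Benjamini-Hochberg adjustment at 0.05 over all genes. The batch block followed the deposited batch column, which goes with replicate number. Deviations from group means correlated at 0.265 to 0.514 for the 15 pairs of libraries of the same number and at -0.409 to 0.136 for the 30 other pairs. Cluster 9 and reference populations were compared within libraries with limma 3.58.1 on log2 CPM (prior count 2). Single values were compared by exact permutation in scipy 1.17.1, two-sided, where 3 against 3 cannot give p below 0.1 nor 3 against 2 below 0.2. Scripts were tested on simulated data. Alternatives included DESeq2 1.42.0. Named genes were Malat1, up to 10 called genes per direction and contrast, up to 4 top members of each list and the 20 leading genes. Maml2 was chosen after its values were seen.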

Additional observations from a re-analysis of the deposited data

How the results depend on the processing

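Malat1 between OTV:Malat1 and ATV:BACE1 kept its direction and its call under 10 alternatives, from -1.17 to -1.07, and on leaving out any library, from -1.19 to -1.03. The falls against nonTV:Malat1 and Malat1 ASO and those in inhibitory-marked and excitatory-marked nuclei kept their calls too. The analysis without glial RNA was not run, since only 2 nuclei lacked all glial markers. In excitatory-marked nuclei those without called doublets and with 2 or more UMIs apart were not run, since too few libraries reached 20 nuclei, and keeping libraries under 20 nuclei was added after seeing the data. Where a group was left with 1 library, it was assumed to vary like the others. The cause of the changes below was not tested. No replicate block left 1, 0, 0, 1 and 1 genes called in the 5 contrasts (OTV:Malat1, nonTV:Malat1, then Malat1 ASO, each against ATV:BACE1, and OTV:Malat1 against nonTV:Malat1 and Malat1 ASO) in place of 8, 0, 2, 3 and 2. Blocking changed no other call. Without a filter on low counts the first 3 counts and the last were 24, 3, 8 and 9. Against ATV:BACE1, leaving out called doublets gave 2 calls for OTV:Malat1 and 1 for the free ASO, and DESeq2 gave 2 and 0, with 1 against nonTV:Malat1. The low bin of oligodendrocyte-marker share, added after seeing the data, gave 2, 0, 1 and 1 in the same contrasts and OTV:Malat1 against Malat1 ASO. Leaving out 1 library gave 2 to 10, 0 to 2, 0 to 3, 1 to 3 and 2 to 4 calls in the 5 contrasts. With the limma trend, added after seeing the data, the difference from other neurons was -0.44, and -0.42 from cluster 1, as without it. For Malat1 ASO its sign turned against cluster 1 neurons (0.024, the same with the trend, and 0.0054 without called doublets) and ran from -0.052 to 0.018 over libraries left out. Leaving out libraries moved Malat1 in Malat1 ASO from -0.076 to 0.034 and its low share from -3.02 to 1.37 percentage points. The share of neurons in cluster 9 changed sign for OTV:Malat1 without called doublets (0.197 points, exact permutation p = 0.1), and for nonTV:Malat1 as a share of all nuclei (-0.022 points). Without called doublets the nonTV:Malat1 difference was 0.535 points (exact permutation p = 0.1), in place of 0.115. Over libraries left out it ran from -0.075 to 0.11, from -0.056 to 0.37 and from -0.13 to 0.54 points for OTV:Malat1, nonTV:Malat1 and Malat1 ASO. With 3 libraries per group at most, exact tests could not pass 0.05.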
